A study of Mus musculus with 2 samples.

Results

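Skeletal muscle fibres form by fusion of single myoblasts, which first adhere to one another and then merge their membranes. The 10 genes described here encode proteins of those steps, namely Mymk, Mymx, Jam2, Jam3, Cdh2, Cdh15, Ncam1, Kirrel, Adgrb1 and Adgrb3. They were taken as a named list of genes from the 55536 Ensembl genes of the gene tables. Total RNA was sequenced from the gastrocnemius, a muscle of the calf. The mice were female B6CASTF1/J, first-generation hybrids of C57BL/6J and CAST/EiJ, at 4 days of age. The single group held 2 libraries, called biological replicate 2 and biological replicate 1, each from 300 ng of whole-muscle RNA with ERCC spike-ins and reduced ribosomal RNA. No treatment, genotype or age was compared, so the design asks at which levels these genes were present and how far the libraries lay apart. The labels number the animals separately but give both libraries 1 donor record, and do not say whether the animals shared a litter. The SD over n = 2 is therefore only the spread between these samples.

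Mymk encodes myomaker, a membrane protein that myoblasts need in order to mix their outer membrane layers. Mymx encodes myomixer, a micropeptide that opens the fusion pore. Cadherins join neighbouring cells through calcium-dependent binding, and Cdh15 (M-cadherin) marks satellite cells and myoblasts while Cdh2 (N-cadherin) is also found in nerve and connective tissue. Ncam1 encodes the neural cell adhesion molecule, which in muscle exists in forms that differ by alternative exons and by their membrane anchor. Jam2 and Jam3 encode junctional adhesion molecules B and C, whose pairing is needed for fusion of fast muscle precursors in zebrafish. Kirrel is related to the Drosophila receptors that bring founder and fusion-competent myoblasts together. Adgrb1 (BAI1) and Adgrb3 (BAI3) are adhesion G-protein-coupled receptors that signal through ELMO and DOCK proteins to Rac1.

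The sequences that identify the transcripts discussed below come from the GENCODE M21 transcripts on build mm10. Ncam1-206 is a partial annotated transcript of 146 bases on the minus strand, spanning chr9:49523626-49543030. It is shown whole, with the 105 bases of its 3 inserted exons in capitals, because it carries the exons known as the muscle-specific domain of NCAM. The same junction is shown for Ncam1-201, which has no insert, and for Ncam1-205, in which 18 inserted bases are in capitals.

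Ncam1-206: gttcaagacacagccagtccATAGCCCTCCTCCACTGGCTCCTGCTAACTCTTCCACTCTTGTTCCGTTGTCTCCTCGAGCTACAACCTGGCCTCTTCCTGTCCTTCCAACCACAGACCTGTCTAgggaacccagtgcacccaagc
Ncam1-201 window: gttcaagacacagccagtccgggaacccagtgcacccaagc
Ncam1-205 window: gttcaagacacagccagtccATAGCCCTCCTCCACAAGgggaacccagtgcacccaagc

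The coding part of the last exon of Ncam1-201, at chr9:49517506-49517582 on the minus strand, is shown because it encodes the end that is replaced by a glycosylphosphatidylinositol (GPI) membrane anchor. Its stop codon is in capitals.

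Ncam1-201 last coding exon: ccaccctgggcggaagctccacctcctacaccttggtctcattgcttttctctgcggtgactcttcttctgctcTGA

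The whole coding sequence of Mymx-203, at chr17:45601417-45601671 on the minus strand, is shown because the fusion micropeptide is encoded by only 84 codons before the stop. Capitals mark the start and stop codons.

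Mymx coding sequence: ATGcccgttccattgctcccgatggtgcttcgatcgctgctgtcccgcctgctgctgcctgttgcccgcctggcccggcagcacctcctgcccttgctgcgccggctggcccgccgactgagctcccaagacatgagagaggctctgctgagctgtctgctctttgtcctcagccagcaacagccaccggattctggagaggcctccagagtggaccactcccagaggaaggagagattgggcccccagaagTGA

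The libraries held 36246031 expected counts in replicate 2 and 30961087 in replicate 1, and 13336 genes were detected, meaning at least 1 TPM (a level scaled for transcript length and library depth) in both. Fibre genes marked the tissue as muscle: all 6 fibre markers were detected, and Acta1, Mylpf and Myh8 led a sum of 40663 TPM in replicate 2, with 34234 TPM in replicate 1. Rn7s1 and Rn7s2, genes of the signal recognition particle RNA, together took 35.8% of TPM in replicate 2 and 36.2% in replicate 1, which lowers the TPM of every other gene. A separate deposited quantification, called the other quantification below, gave TPM values that were a median of 1.76 times those of the gene tables over 12011 protein-coding genes. Levels are from the gene tables unless stated. In whole-muscle RNA, fewer cells of a type and less RNA per cell cannot be told apart.

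Of the 10 genes, 8 were detected, against 24.0% of all Ensembl genes and 54.8% of protein-coding genes. Their summed level was 206.7 TPM in replicate 2 and 185.8 TPM in replicate 1. Adgrb3 and Adgrb1 fell short of 1 TPM in both libraries, and Adgrb3 passed it in the other quantification, which put 9 of the 10 at or above that minimum. The authors' deposited count uncertainty was 0 for all 10 genes, so none of their counts was shared with another gene in that estimate.

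**Figure D1:**
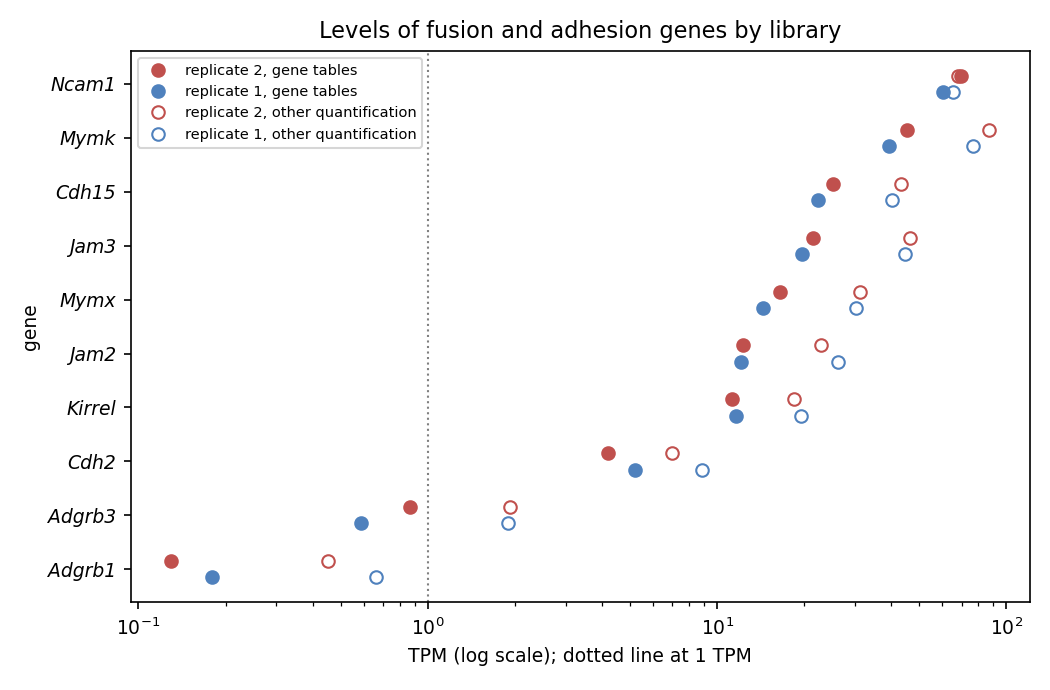
TPM of the 10 genes on a log axis, with replicate 2 in red and replicate 1 in blue, filled for the gene tables and open for the other quantification. Ncam1 was highest in the gene tables and Mymk in the other quantification, and only Adgrb3 and Adgrb1 lay below 1 TPM in the gene tables.

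The transcripts of both fusion proteins were detected. Mymk (chr2:27061636-27072179, minus strand) was at 45.4 TPM in replicate 2 and 39.3 TPM in replicate 1, from 1848 expected counts in replicate 2 and 1409 in replicate 1, and stood above 87.9% of detected genes. Mymx (chr17:45600971-45602102, minus strand) was at 16.5 TPM in replicate 2 and 14.5 TPM in replicate 1, from 350 counts in replicate 2 and 270 counts in replicate 1. The lowest Mymk value lay above the highest Mymx value. Their ratio was close between libraries: the Mymk level was 2.75 times that of Mymx in replicate 2 and 2.72 times in replicate 1. In the other quantification the ratio was 2.78 in replicate 2 and 2.54 in replicate 1. Expected counts, which are not scaled for length, gave 5.28 in replicate 2 and 5.22 in replicate 1.

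Each fusion gene had 1 leading transcript. Mymk-201 held 100% of Mymk TPM in replicate 2 and 98.9% in replicate 1. Mymx-203 held 87.6% of Mymx TPM in replicate 2 and 87.8% in replicate 1, and Mymx-201, Mymx-203 and Mymx-204 share the coding sequence printed above. Mymx-202, which is annotated with 108 codons, held 4.73% in replicate 2 and 3.67% in replicate 1. The other quantification placed more there, 23.8% in replicate 2 and 25.9% in replicate 1, so the share of this longer coding form differed with the quantification.

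M-cadherin exceeded N-cadherin in both libraries. Cdh15 (chr8:122847966-122867397, plus strand), annotated with a single transcript, was at 25.2 TPM in replicate 2 and 22.4 TPM in replicate 1, from 2525 counts in replicate 2 and 1975 in replicate 1. Cdh2 (chr18:16588877-16809246, minus strand) was at 4.21 TPM in replicate 2 and 5.20 TPM in replicate 1, from 562 counts in replicate 2 and 598 in replicate 1. These ranges did not overlap, and the Cdh15 level was 5.99 times that of Cdh2 in replicate 2 and 4.30 times in replicate 1. Cdh15 lies within the readthrough gene Gm20388 on the same strand, which took 603 counts in replicate 2 and 587 in replicate 1. Of the Cdh2 coding transcripts, Cdh2-201 was at 2.21 TPM in replicate 2 and 2.25 TPM in replicate 1, with Cdh2-202 at 1.65 TPM in replicate 2 and 2.51 TPM in replicate 1. The counts of Cdh2-202 carried an estimation SD of 36.8 in replicate 2 and 36.0 in replicate 1. In the other quantification both were lower in replicate 2, Cdh2-201 at 4.01 TPM in replicate 2 against 4.97 TPM in replicate 1, and Cdh2-202 at 2.33 TPM in replicate 2 against 3.15 TPM in replicate 1, so the transcript that held the difference of Cdh2 was not settled.

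Among 8 classical and related cadherins, Cdh15 held 14.4% ± 1.00 of the summed TPM and Cdh2 held 2.85% ± 0.47 (SD, n = 2). Cdh5, the endothelial cadherin, was the highest in the gene tables at 39.2% ± 1.60, and the GPI-anchored Cdh13 held 31.6% ± 0.08. The other quantification turned this order, with Cdh13 at 37.8% in replicate 2 and 35.4% in replicate 1, and Cdh5 at 34.95% in replicate 2 and 34.5% in replicate 1. Cdh11, a mesenchymal cadherin, held 9.79% ± 2.20, and Cdh4 (R-cadherin) held 1.54% ± 0.34. Cdh3 (P-cadherin) and Cdh1 (E-cadherin) were below 1 TPM in both libraries. Cdh5 was also 1 of 6 endothelial markers detected, which summed to 183.0 TPM in replicate 2 and 170.4 TPM in replicate 1.

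Ncam1 (chr9:49502136-49798925, minus strand) had the highest gene level of the 10, at 69.5 TPM in replicate 2 and 60.5 TPM in replicate 1, from 4492 counts in replicate 2 and 3865 in replicate 1. It stood above 92.1% of detected genes and held 99.5% ± 0.07 (SD, n = 2) of the TPM of the NCAM pair, with Ncam2 at 0.33 TPM in replicate 2 and 0.35 TPM in replicate 1. The partial transcript printed above carried a large part of that level on very few counts. Ncam1-206 held 37.6% of Ncam1 TPM in replicate 2 and 32.7% in replicate 1, but 0.87% of Ncam1 counts in replicate 2 and 0.67% in replicate 1. Its counts were 39 in replicate 2 (exact Poisson 95% interval 27.7 to 53.3) and 26 in replicate 1 (17.0 to 38.1). With an effective length of 47 bases these counts became 26.1 TPM in replicate 2 and 19.8 TPM in replicate 1. The other quantification gave this transcript 0 counts in both libraries.

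**Figure D2:**
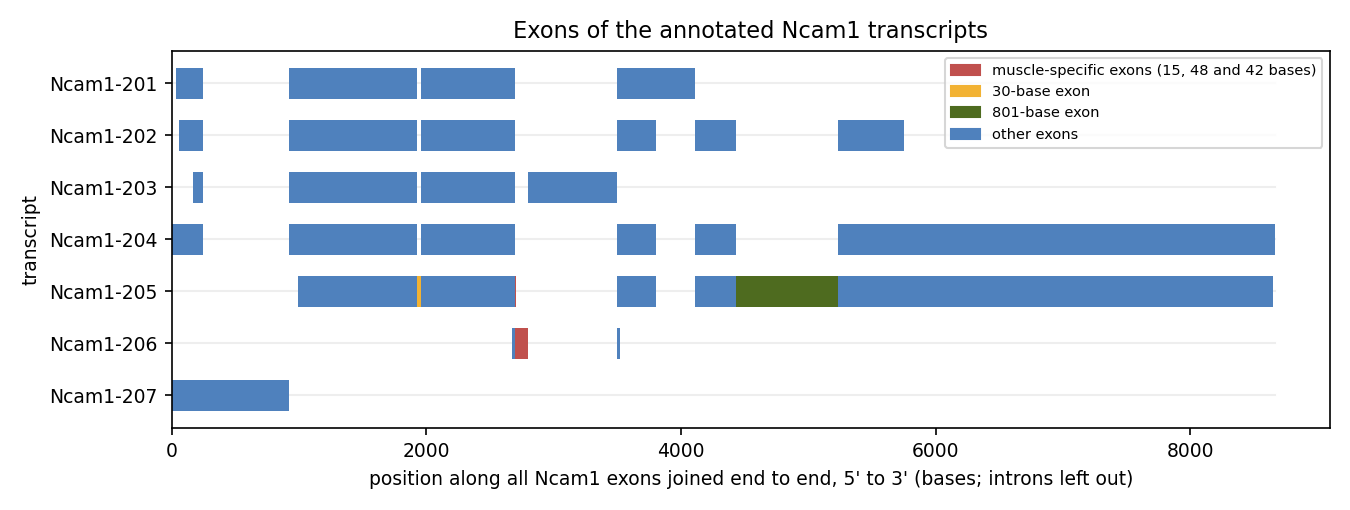
Exons of the 7 annotated Ncam1 transcripts, drawn to scale in bases with introns left out, each row being 1 transcript. In Ncam1-206, 105 of the 146 bases are the muscle-specific exons in red, which are absent from the other rows except for the 15-base exon of Ncam1-205, too narrow to stand out at this scale.

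The muscle-specific exons of 48 and 42 bases had no other place in the annotation. All 47 windows of 100 bases in Ncam1-206 cross the junction between these exons, and 0 of the 47 occurs in any of the 141766 other annotated transcripts. The level of Ncam1-206 was 65.2% of the summed level of Ncam1-201, Ncam1-202, Ncam1-204 and Ncam1-205 in replicate 2 (46.4 to 89.2 by the counting interval of the partial transcript alone), and 53.1% in replicate 1 (34.7 to 77.8). The intervals of the libraries overlapped. To which full-length transcripts these exons belong was not tested. Without the partial transcript, Ncam1 was at 43.3 TPM in replicate 2 and 40.7 TPM in replicate 1, no longer separated from Mymk.

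The GPI-anchored form led the Ncam1 forms in both quantifications by TPM, but not beyond the bounds of Ncam1-206 in the gene tables. The deposited bounds in replicate 2 were 24.7 to 28.0 TPM for Ncam1-201 and 18.4 to 34.4 TPM for Ncam1-206. In replicate 1 they were 21.4 to 24.6 TPM for Ncam1-201 and 12.9 to 27.8 TPM for Ncam1-206. Ncam1-201 was at 27.0 TPM in replicate 2 and 23.6 TPM in replicate 1, which is 38.9% of Ncam1 TPM in replicate 2 and 39.0% in replicate 1. Leaving out Ncam1-206 made this share 62.4% in replicate 2 and 58.0% in replicate 1, and the other quantification gave 57.7% in replicate 2 and 52.3% in replicate 1. The transmembrane forms with the shorter cytoplasmic part, Ncam1-204 and Ncam1-202, held 15.5% in replicate 2 and 19.6% in replicate 1. Ncam1-205, which has the 801-base exon of the longer cytoplasmic part and the 30-base exon known as VASE, held 3.24% in replicate 2 and 2.99% in replicate 1. The other quantification placed more on Ncam1-205, 9.50% in replicate 2 and 9.23% in replicate 1. Ncam1-203, whose coding sequence ends early, held 2.19% in replicate 2 and 3.92% in replicate 1, and the noncoding Ncam1-207 held 2.58% in replicate 2 and 1.84% in replicate 1.

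**Figure D3:**
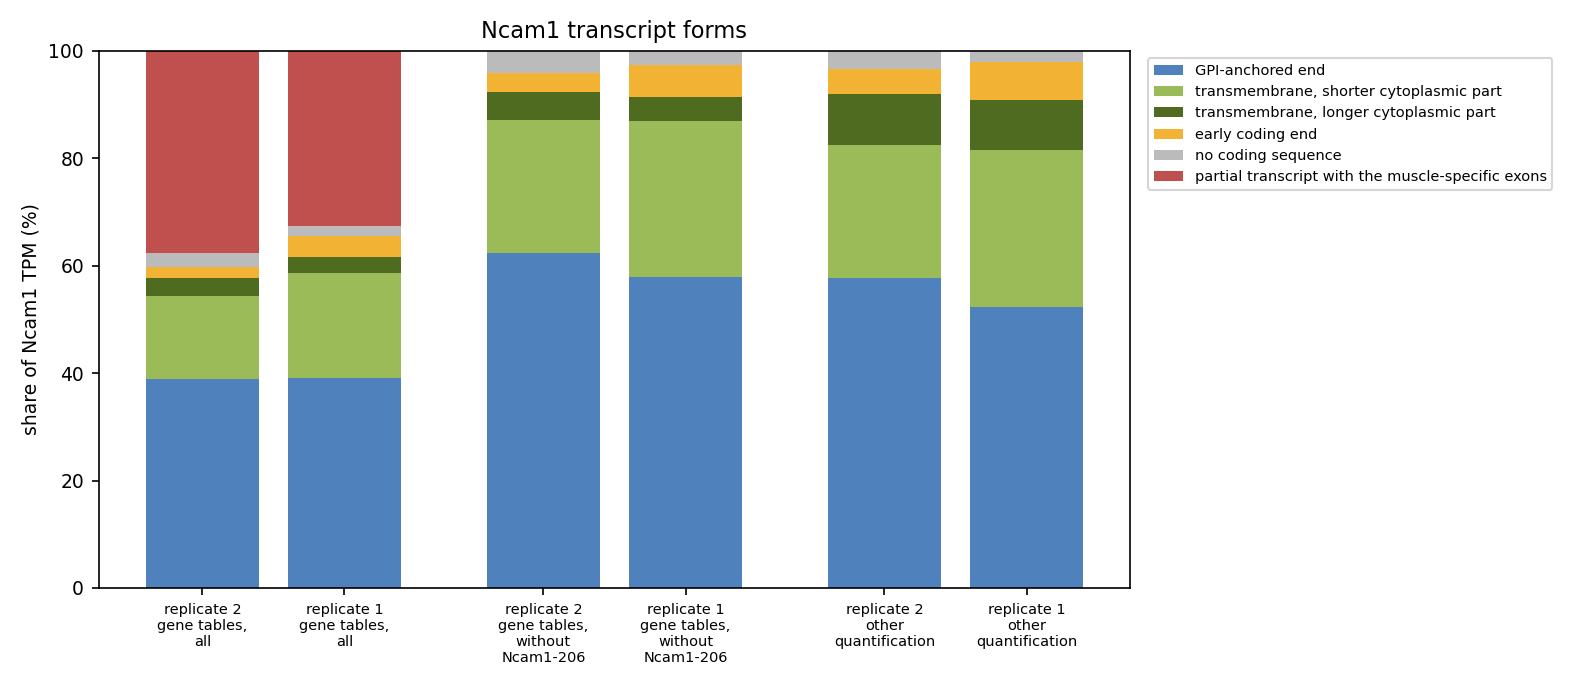
Stacked shares of Ncam1 TPM by transcript form, for replicate 2 and replicate 1 in the gene tables, in the gene tables without Ncam1-206, and in the other quantification. The GPI-anchored form is at 62.4% in replicate 2 and 58.0% in replicate 1 once Ncam1-206 is left out, and at 57.7% in replicate 2 and 52.3% in replicate 1 in the other quantification.

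By expected counts the long transmembrane transcripts weighed more, since they are longer. The GPI-anchored form then held 47.2% of Ncam1 counts in replicate 2 and 42.2% in replicate 1, against 38.1% in replicate 2 and 43.9% in replicate 1 for Ncam1-204 and Ncam1-202 together. The order of these forms by counts thus differed between the libraries, while by TPM the GPI-anchored form was first in both. The transmembrane form with the longer cytoplasmic part held a further 10.27% of counts in replicate 2 and 8.46% in replicate 1. With it included, transmembrane forms exceeded the GPI-anchored form by counts in both libraries, narrowly in replicate 2. Counts of the other quantification gave this order too, with the GPI-anchored form at 41.43% in replicate 2 and 35.68% in replicate 1. Between libraries, Ncam1-201 had a log2 ratio of 0.20 and Ncam1-204 one of -0.21, both replicate 2 over replicate 1, although the gene as a whole differed by 0.04.

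The junctional adhesion molecules were both detected, Jam3 above Jam2. Jam3 (chr9:27097384-27155421, minus strand) was at 21.5 TPM in replicate 2 and 19.6 TPM in replicate 1, from 1192 counts in replicate 2 and 899 in replicate 1. Jam2 (chr16:84774123-84825928, plus strand) was at 12.2 TPM in replicate 2 and 12.1 TPM in replicate 1, from 1233 counts in replicate 2 and 1026 in replicate 1. The Jam3 level was 1.75 times that of Jam2 in replicate 2 and 1.62 times in replicate 1. Counts alone gave 0.97 in replicate 2 and 0.88 in replicate 1, so the order turned when length was not taken into account. Jam3 has an antisense gene, Gm48796, with 33 counts in replicate 2 and 41 in replicate 1, and whether counting used strand was not tested.

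The transcripts of both JAM genes were less settled than their totals. Jam3-201, the main coding form, held 89.5% of Jam3 TPM in replicate 2 and 79.6% in replicate 1. In the other quantification it held 59.7% in replicate 2 and 50.1% in replicate 1, and the noncoding Jam3-205 took 33.4% in replicate 2 and 39.0% in replicate 1. The gene tables placed 0 counts on Jam3-205 in replicate 2 and 11.2 in replicate 1. Jam2-202 led Jam2 with 8.06 TPM in replicate 2 and 7.17 TPM in replicate 1. Jam2-204, another coding transcript, was at 2.62 TPM in replicate 2 and 4.25 TPM in replicate 1, with counts of 93.0 and an estimation SD of 21.4 in replicate 2 and counts of 132.8 and an SD of 20.4 in replicate 1.

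Among 6 JAM and related genes, Jam3 held 34.5% ± 1.5 of the summed TPM and Jam2 held 20.5% ± 0.28 (SD, n = 2). Esam, an endothelial adhesion molecule, held 32.9% ± 0.68, from 19.6 TPM in replicate 2 and 19.5 TPM in replicate 1. In the other quantification Esam held 37.2% and Jam3 33.2% in replicate 2, against 33.35% for Esam and 33.9% for Jam3 in replicate 1. Which of Jam3 and Esam was higher was therefore not settled. F11r (JAM-A) held 10.8% ± 0.47, Cxadr held 1.24% ± 0.11, and Igsf5 took 2 counts in replicate 2 and 0 in replicate 1, where a count of 0 allows up to 3 counts. Jam2 and Jam3 are also known from endothelium, and which cells gave their RNA was not tested.

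**Figure D4:**
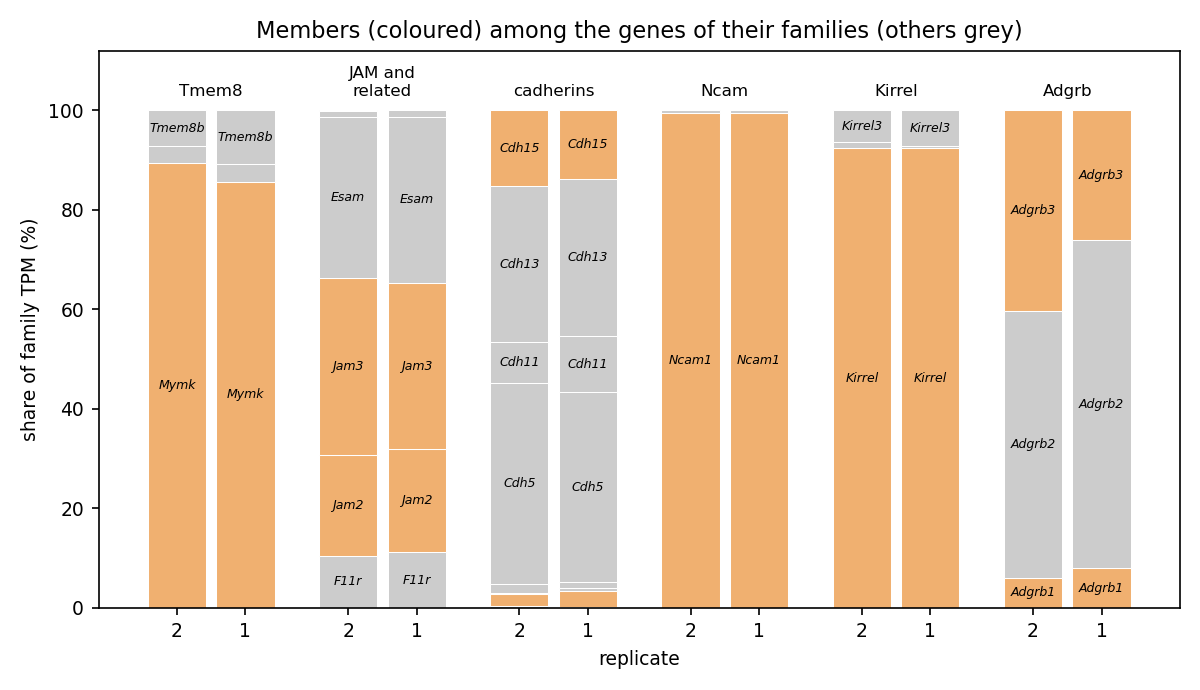
Share of the summed TPM of each gene family in replicate 2 and replicate 1, with the genes described here in orange and their relatives in grey. Mymk, Ncam1 and Kirrel take most of their families, whereas Cdh15, Cdh2, Jam2 and Jam3 share theirs with Cdh5, Cdh13 and Esam, and Adgrb2 takes the largest share of its family in these gene tables.

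Kirrel (chr3:87078593-87174747, minus strand) was at 11.2 TPM in replicate 2 and 11.6 TPM in replicate 1, from 2445 counts in replicate 2 and 2277 in replicate 1. It held 92.4% ± 0.01 (SD, n = 2) of the TPM of its family. Kirrel3 was at 0.78 TPM in replicate 2 and 0.89 TPM in replicate 1, with Kirrel2 at 0.15 TPM in replicate 2 and 0.07 TPM in replicate 1. Kirrel-203 was at 6.42 TPM in replicate 2 and 7.21 TPM in replicate 1, above Kirrel-202 at 4.15 TPM in replicate 2 and 4.07 TPM in replicate 1. The other quantification put Kirrel-202 first, with 9.91 TPM in replicate 2 and 10.6 TPM in replicate 1. The estimation SD of the Kirrel-202 counts was 215 in replicate 2 and 183 in replicate 1. These transcripts, of 7236 bases for Kirrel-203 and 7278 bases for Kirrel-202, could not be ordered by level.

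Myomaker likewise took most of its own small family. Mymk held 87.6% ± 2.66 (SD, n = 2) of the summed TPM, Tmem8b held 8.99% ± 2.62 and Tmem8 held 3.42% ± 0.04.

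The BAI receptors were the lowest of the 10. Adgrb3 (chr1:25067476-25829707, minus strand) was at 0.87 TPM in replicate 2 and 0.59 TPM in replicate 1, from 124 counts in replicate 2 and 85 in replicate 1. Its annotated span overlaps 23 other genes. Adgrb1 (chr15:74516195-74589465, plus strand) was at 0.13 TPM in replicate 2 and 0.18 TPM in replicate 1, from 18 counts in replicate 2 and 17 in replicate 1. All Adgrb1 counts of the gene tables sat on transcripts annotated as nonsense-mediated decay or processed transcript. The full-length coding Adgrb1-201 was assigned 0 counts in both libraries. Adgrb1-205 held 83.4% of Adgrb1 counts in replicate 2 but 0.53% in replicate 1, so the assignment was not settled. The other quantification placed 1.17% of Adgrb1 counts in replicate 2 and 11.45% in replicate 1 on coding transcripts, with 0 counts on Adgrb1-201. The authors' deposited upper bound for Adgrb1-201 was 0.0559 TPM in replicate 2 and 0.0587 TPM in replicate 1. The TPM of Adgrb1-205 in replicate 2, at 0.08, lay above its own upper bound of 0.0689. Coding Adgrb1 RNA was therefore not shown to be absent. Coding transcripts held 82.7% of Adgrb3 counts in replicate 2 and 80.9% in replicate 1. The other quantification gave coding Adgrb3 transcripts less, 66.7% in replicate 2 and 64.1% in replicate 1. Their relative Adgrb2 held 59.9% ± 8.75 of the family TPM, from 1.16 TPM in replicate 2 and 1.5 TPM in replicate 1, against 33.1% ± 10.1 for Adgrb3 and 6.97% ± 1.35 for Adgrb1 (SD, n = 2). In the other quantification Adgrb3 and Adgrb2 were close in replicate 2, at 44.95% for Adgrb3 and 44.49% for Adgrb2, while in replicate 1 Adgrb3 held 39.1% and Adgrb2 held 47.3%.

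By level the 10 genes ran Ncam1, Mymk, Cdh15, Jam3, Mymx, Jam2, Kirrel, Cdh2, Adgrb3 and Adgrb1 in both libraries. All 9 neighbouring pairs had ranges over the libraries that did not overlap, but 2 libraries make a narrow range. By the authors' deposited bounds on each TPM, 5 of the 9 pairs were apart in both libraries. Those not apart were Cdh15 and Jam3, Mymx and Jam2, Jam2 and Kirrel, and Adgrb3 and Adgrb1. The bounds of Adgrb1 were 0.287 to 0.884 TPM in replicate 2 and 0.324 to 0.958 TPM in replicate 1, which lie above its own TPM. The other quantification placed Mymk, at 86.9 TPM in replicate 2 and 76.6 TPM in replicate 1, above Ncam1, at 68.1 TPM in replicate 2 and 65.6 TPM in replicate 1. It also placed Jam3 above Cdh15. Relative to protein-coding genes alone, a scale chosen after the data were seen, Mymk was at 107.9 TPM in replicate 2 and 97.4 TPM in replicate 1 by the gene tables, and at 109.7 TPM in replicate 2 and 97.9 TPM in replicate 1 by the other quantification. On that scale Ncam1 was at 165.3 TPM in replicate 2 and 149.9 TPM in replicate 1 by the gene tables, but at 85.9 TPM in replicate 2 and 83.8 TPM in replicate 1 by the other quantification. The Mymk level was thus nearly the same by both once the scale was shared, and that of Ncam1 was not.

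Few genes lay far apart between the libraries, and these genes were not among them. A mean of 100 counts or more was reached by 9 of the 10, and 0 of these 9 were over 2-fold apart, against 0.718% of the 12256 genes tested. This rests on 1 library against 1, so no p-value was computed. For 2 values set against 2, the smallest p of a two-sided exact permutation test is 0.33. At a log2 ratio of 0.5 or further from 0, again 0 of 9 were counted, against 3.68% of genes. With shares this low over all genes, 0 of 9 does not set these genes apart from the rest. Of the 9, 7 were higher and 2 lower in replicate 2, where 55.3% of genes were higher in replicate 2. Their median log2 ratio, replicate 2 over replicate 1, was 0.18, against 0.02 over all genes, which ran between -0.36 at the 5th percentile and 0.31 at the 95th. Scaling to spike-ins moved the median of all genes by -0.14 and left 5 of the 9 higher and 4 lower.

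Mymk had a log2 ratio of 0.21 (95% counting interval 0.11 to 0.32), Cdh15 one of 0.18 (0.09 to 0.26) and Jam3 one of 0.23 (0.10 to 0.36). Their counting intervals lay above 0, and that of Cdh2, at -0.27 (-0.44 to -0.10), lay below it. The intervals of Ncam1, Mymx, Jam2, Kirrel and Adgrb3 spanned 0, the last with a ratio of 0.36 (-0.04 to 0.78). These intervals cover counting error only. With spike-in scaling Ncam1 was at -0.10 and Jam2 at -0.05, so their direction depended on the scaling. Mymk at 0.07, Mymx at 0.06, Cdh15 at 0.04, Jam3 at 0.09 and Adgrb3 at 0.22 were above 0 but smaller. The values of Mymk, Cdh15 and Jam3 then lay below the lower ends of the intervals given above. Spike-in scaling shifts every interval alike, by a median of -0.14 over all genes, which is larger in size than those lower ends. The intervals of Mymk, Cdh15 and Jam3 would therefore span 0 under that scaling. Kirrel was then at -0.215 and Cdh2 at -0.406. The intervals of Kirrel and Ncam1, whose upper ends were 0.009 for Kirrel and 0.102 for Ncam1, would lie below 0.

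**Figure D5:**
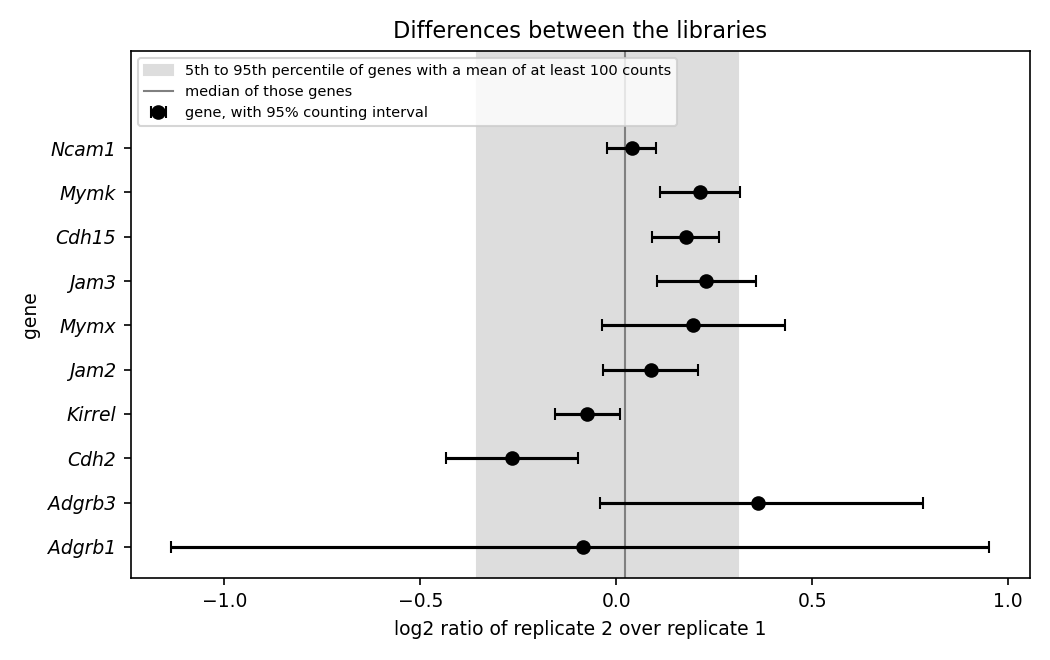
Log2 ratio of replicate 2 over replicate 1 for each of the 10 genes, with 95% counting intervals, over the band from the 5th to the 95th percentile of 12256 genes (grey) and their median (line). All points except Adgrb3 lie within the band, and Adgrb1, with a mean below 100 counts, has the widest interval.

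Partners of these genes were chosen by function, with earlier results of these data known, as 61 listed genes. Of these, 53 were detected, against 54.8% of protein-coding genes, a background that holds for each list below. Of the 54 that reached a mean of 100 counts, 31 were higher and 23 lower in replicate 2. Over all genes tested, 55.3% were higher in replicate 2. The median log2 ratio of the 54 was 0.03. Of these 54, 0 were over 2-fold apart, against 0.718% of all genes tested. In the list of fusion signalling and actin genes, 25 of 28 were detected. It was led by Itgb1 (integrin beta 1) at 166.7 ± 5.68 TPM, the tetraspanin gene Cd81 at 139.1 ± 7.90 TPM, and the small GTPase genes Cdc42 at 115.3 ± 0.63 TPM and Rac1 at 113.5 ± 2.64 TPM (SD, n = 2). Genes that act downstream of the BAI receptors were detected. Elmo1 was at 9.81 ± 1.00 TPM, Elmo2 at 10.8 ± 0.52 TPM and Dock1 at 18.6 ± 2.92 TPM, each above the 0.73 ± 0.20 TPM of Adgrb3 in both libraries. Dock5 was at 0.75 TPM in replicate 2 and 0.93 TPM in replicate 1. Stab2, another receptor for phosphatidylserine, was at 0.19 TPM in replicate 2 and 0.49 TPM in replicate 1. Nphs1 (nephrin) had 0 counts in both, but 4.2 counts in replicate 2 and 5.1 in replicate 1 in the other quantification.

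Among 5 ligands and partners of the BAI receptors, only C1ql3 was detected, at 1.84 TPM in replicate 2 and 1.57 TPM in replicate 1. Rtn4r was at 0.48 TPM in replicate 2 and 0.52 TPM in replicate 1, with C1ql1 at 0.57 TPM in replicate 2 and 0.39 TPM in replicate 1. C1ql2 and C1ql4, whose products bind BAI3, had 0 counts in both libraries, which allows up to 3 counts in each.

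All 14 genes of the cadherin and nectin list were detected. Ctnnb1 (beta-catenin) was at 167.2 ± 0.55 TPM and Ctnna1 (alpha-catenin), which links cadherins to actin, at 55.0 ± 4.68 TPM (SD, n = 2). Gas1 was at 42.9 ± 0.81 TPM, and Afdn, the afadin gene whose product binds nectins and JAMs, at 33.5 ± 0.17 TPM. Cdon, a cadherin-associated receptor of myoblasts, was at 22.3 ± 2.24 TPM, beside its relative Boc at 12.0 ± 2.67 TPM.

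Of 8 NCAM partners, 7 were detected. Sptbn1 (beta-spectrin) was at 91.4 ± 1.90 TPM, Fgfr1 at 47.9 ± 4.20 TPM, Agrn (agrin) at 21.7 ± 0.53 TPM and Fgfr4 at 18.8 ± 1.49 TPM (SD, n = 2). The enzymes that add polysialic acid to NCAM were both detected, St8sia4 at 4.46 TPM in replicate 2 and 4.27 TPM in replicate 1, with St8sia2 at 2.50 TPM in replicate 2 and 2.74 TPM in replicate 1. Gdnf was at 0.75 TPM in replicate 2 and 0.74 TPM in replicate 1.

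All 6 genes of the list of regulators were detected, and each was higher in replicate 2, as were 55.3% of all genes, with a median log2 ratio of 0.18. With spike-in scaling Mef2c was at -0.10 and Pax7 at 0.00, so the direction of Mef2c depended on the scaling. Mef2c was at 218.0 TPM in replicate 2 and 208.9 TPM in replicate 1. Myog (myogenin), which activates the myomaker and myomixer genes, was at 81.7 TPM in replicate 2 and 71.5 TPM in replicate 1. Myf6 was at 51.2 TPM in replicate 2 and 37.0 TPM in replicate 1, with Myod1 at 24.6 TPM in replicate 2 and 19.0 TPM in replicate 1. Log2 ratios of the regulators were 0.04 for Mef2c, 0.14 for Pax7, 0.16 for Myf5, 0.20 for Myog, 0.38 for Myod1 and 0.48 for Myf6. Mymk was at 0.21 and Mymx at 0.20, and the median of all genes was 0.02. These values rest on 1 library against 1, and a link between regulators and fusion genes was not tested.

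Marker sums of satellite, endothelial and mural cells were close between the libraries. The 6 satellite cell markers, led by Itga7, Sdc4 and Fgfr4, were all detected and summed to 126.3 TPM in replicate 2 and 125.6 TPM in replicate 1. Itga7 was the largest part of both sums, at 60.6 TPM in replicate 2 and 58.0 TPM in replicate 1. By log2 ratio, 4 of the 6 were higher and 2 lower in replicate 2. Endothelial markers were led by Cdh5, Pecam1 and Cldn5, and mural markers, led by Acta2, Rgs5 and Abcc9, summed to 277.7 TPM in replicate 2 and 269.0 TPM in replicate 1. Within the mural list the log2 ratios ran between -0.57 for Myh11 and 0.30 for Cspg4, both named after their values were seen. Of the neuron markers 1 of 6 was detected, Stmn2 at 2.45 TPM in replicate 2 and 2.31 TPM in replicate 1, above Tubb3 and Rbfox3. Fibroblast markers, led by Col1a1, Dcn and Dpt, summed to 2609 TPM in replicate 2 and 3400 TPM in replicate 1, with 2 of the 6 higher and 4 lower in replicate 2. Col1a1 made up most of both sums, at 2181 TPM in replicate 2 and 2951 TPM in replicate 1, whereas Dpt was at 89.2 TPM in replicate 2 and 73.9 TPM in replicate 1. All 6 fibre markers were higher in replicate 2, as were 55.3% of all genes tested, with a median log2 ratio of 0.25.

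Markers of liver, of bone and cartilage, and of red cells differed more. Liver markers, led by Alb, Ahsg and Afp, summed to 104.5 TPM in replicate 2 and 10.2 TPM in replicate 1. Bone and cartilage markers, led by Spp1, Ibsp and Bglap, summed to 1.10 TPM in replicate 2 and 32.3 TPM in replicate 1. Red cell markers, led by Slc4a1, Alas2 and Ermap, summed to 6.40 TPM in replicate 2 and 44.6 TPM in replicate 1. The part of any of these lists in the ratios of the 10 genes was not tested.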

How the data were processed

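RNA-seq values of 2 libraries of 1 group were used. Per the file headers, the authors deposited expected counts (estimates that need not be whole), TPM and bounds on TPM per gene and per transcript. They also deposited, from another run of estimation, estimated counts and TPM per transcript. These were summed per gene as the other quantification. Build mm10 and GENCODE M21 are given by the accompanying notes. Which aligner and which quantification programs were used, and how strand was treated, is not given here. Symbols, coordinates (1-based), exons and sequences were matched by gene and transcript identifier to GENCODE M21, and all 10 genes matched.

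Expected counts were rounded. edgeR 4.0.16 in R 4.3.3 gave scaling factors (trimmed mean of M values, on genes averaging 10 counts or more) and, at a prior count of 2, log2 ratios that put replicate 2 over replicate 1, with no test. Ratios were read for genes averaging 100 counts or more, against genes over 2-fold apart by size alone. Counting intervals of ratios are exact Clopper-Pearson intervals and those of single counts exact Poisson intervals, both at 95%. Reads are not independent molecules, so intervals and the floor of 3 counts cover counting error only. The ratio step was tested on simulated data. DESeq2 1.42.0 size factors, library size and spike-ins (268427 counts in replicate 2 and 215303 in replicate 1) were alternative scalings. All other steps ran in Python 3.11.15 (pandas 2.3.3, scipy 1.17.1), and figures were drawn with matplotlib 3.10.9.

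Reads of the CAST/EiJ allele were counted on a C57BL/6J reference, and alleles were not separated here. The 10 genes and the lists were chosen with earlier results of these data known. Named genes were all 10, every family gene, of each pathway list the 4 highest, those under 1 TPM in either library and those over 2-fold apart, of each marker list the 3 highest, Ncam1 transcripts with at least 5% of Ncam1 TPM in either library by either quantification, and the leading transcript of the others. Elmo1, Elmo2, Dock1, Cdon, Boc, St8sia2, St8sia4, Pax7 and Myf5 were added after their values were seen. So were the remaining Ncam1 transcripts and the second transcripts of other genes. One marker list under this rule is not reported here. No gene of like pattern was sought, since 2 libraries of 1 group give no pattern.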

Additional observations from a re-analysis of the deposited data

How the results depend on the processing

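The number of detected genes stayed at 8 or 9 of the 10 and at 51 to 55 of the 61 partners under each TPM minimum, quantification and left-out library tried. No gene of the 10 with 100 counts or more on average was over 2-fold apart under any scaling, prior count or quantification tried. The number of all genes over 2-fold apart was 88 as reported, 660 when genes averaging 10 counts or more were taken and 2568 with no count minimum, and the larger sets admit genes of few counts. The share of Ncam1 TPM in the GPI-anchored form was 38.96% as reported, 54.99% in the other quantification, 44.68% of expected counts, 60.15% without Ncam1-206, and 38.91% to 39.01% with either library left out. Levels of 9 of the 10 genes moved by more than the SD between libraries in the other quantification, and all 10 did when rescaled to protein-coding genes. Log2 ratios of 6 of the 10 genes moved with spike-in scaling, and 0 of the 10 moved with DESeq2 size factors, library size or another prior count. Leaving out Ncam1-206 and rescaling to protein-coding genes were alternatives chosen after seeing the data. No paired analysis was possible because the series holds 1 group. For genes such as Adgrb1, with 18 counts in replicate 2 and 17 in replicate 1, a difference between libraries was not detectable at this depth.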
